A study of Mus musculus with 24 samples.

Results

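The 60 genes described here encode nucleolar factors that make ribosomes: subunits and helpers of RNA polymerase I, the box C/D and box H/ACA small nucleolar ribonucleoproteins, the small subunit processome, and the factors that mature each ribosomal subunit. They were taken from a written list, which leaves out Cirh1a and its partners of the t-UTP subcomplex, by matching each name or an older synonym to the target IDs of the arrays; a target ID is a transcript target read by 1 or more probes. All 60 were found, on 66 of 31483 target IDs, 30 of them under the listed name (FBL, NPM1 and BOP1 among them) and 30 only under an older synonym. Of the 60 members, 40 were read on each of the 24 arrays and 20 only on the arrays of E9.5 and E11.5, among them Fbl, Imp3, Imp4 and Rrp9. For the 5 members with several target IDs (Mphosph10, Krr1, Nob1, Nip7 and Ubtf), the one of highest mean level percentile over all arrays is described unless another is named. Another can stand higher at single stages. The target ID KRR1 did so for Krr1 at E8.5 and E12.5, and UBTF for Ubtf at E8.5 and E9.5.

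The samples, 8 groups of 3 from mice of the C57BL/6 JAX strain, were hybridised to Illumina bead arrays. Wild-type embryos and littermates heterozygous for a β-Geo gene trap in Cirh1a were compared as whole embryos at embryonic day (E) 8.5 and 9.5 and as liver at E11.5 and E12.5, with genotypes read by PCR from yolk sac. The labels name the trap for every sample, wild type included, and give the genotype in the titles. They give no age beyond the stage, and they do not say whether a sample is 1 embryo or a pool, so the p-values measure the spread between these samples, which may be technical. Cirh1a, now named Utp4, encodes cirhin, a protein of the small subunit processome, and the comparisons ask whether its companions in ribosome production differ when 1 allele is trapped.

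Ribosome production starts in the nucleolus, where RNA polymerase I transcribes the long precursor of ribosomal RNA. Small nucleolar RNPs guide methylation and pseudouridylation of the precursor, the small subunit processome with its U3 RNA folds and cleaves the part that becomes the small subunit, and a separate set of factors assembles the large subunit. Dividing embryonic cells and the blood-forming fetal liver make ribosomes at a high rate. Most of the roles given below were worked out in yeast and in human cells.

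Promoters were read to see what the members share besides function. In RefSeq's annotation of the mouse genome (GRCm38.p6), 47 of the 60 members had an entry, with 55 windows of 250 bases upstream of a start site. The letters CCGGAA, or TTCCGG on the other strand, which form the core of the sites bound by ETS factors, stood in 21 of the 55 windows (38.2%), against 14.998% of all 21263 windows of protein-coding genes. The E-box CACGTG, its own reverse complement, stood in 9.09% of the member windows and 6.63% of all, TATAAA (or TTTATA) in 3.64% and 11.6%, and GCGCATGC (or GCATGCGC) in 1.82% and 2.93%. The member windows were also richer in G and C, with a median of 59.6% against 55.6%. A match describes the letters and is not a binding site. The windows of 4 members are shown, those of highest mean level percentile among members with a match and with values at every stage. They were not the closest matches: Noc3l, Mphosph10, Nolc1 and Pwp2, not shown, hold one that starts nearer to the start site. Each match is in capitals, 5′ to 3′ in the direction of the gene:
Gar1, chr3:129831397-129831646, minus strand: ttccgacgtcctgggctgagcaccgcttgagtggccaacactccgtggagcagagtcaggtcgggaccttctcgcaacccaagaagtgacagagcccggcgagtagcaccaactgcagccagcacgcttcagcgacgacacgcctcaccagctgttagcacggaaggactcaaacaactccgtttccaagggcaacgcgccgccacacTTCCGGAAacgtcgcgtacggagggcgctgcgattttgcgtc
Nsa2, chr13:97137927-97138176, minus strand: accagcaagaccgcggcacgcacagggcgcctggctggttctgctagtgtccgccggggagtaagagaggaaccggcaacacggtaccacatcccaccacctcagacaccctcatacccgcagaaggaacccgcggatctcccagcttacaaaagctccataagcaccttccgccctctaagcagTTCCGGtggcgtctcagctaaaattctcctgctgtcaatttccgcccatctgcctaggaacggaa
Nhp2, chr11:51619523-51619772, plus strand: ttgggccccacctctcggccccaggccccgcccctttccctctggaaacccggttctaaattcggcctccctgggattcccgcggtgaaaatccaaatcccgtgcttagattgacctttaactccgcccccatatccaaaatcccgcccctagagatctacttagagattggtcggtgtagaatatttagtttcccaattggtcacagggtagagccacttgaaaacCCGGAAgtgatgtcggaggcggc
Nop2, chr6:125131633-125131882, plus strand: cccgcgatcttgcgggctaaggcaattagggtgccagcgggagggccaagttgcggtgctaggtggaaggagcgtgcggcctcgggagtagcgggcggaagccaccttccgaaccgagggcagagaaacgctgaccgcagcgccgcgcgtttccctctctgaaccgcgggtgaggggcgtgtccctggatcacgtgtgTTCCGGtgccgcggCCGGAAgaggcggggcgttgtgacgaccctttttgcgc
In Gar1 a TTCCGG and a CCGGAA overlap, starting 42 and 40 bases before the start site. The match starts 65 bases before it in Nsa2 and 23 bases before it in Nhp2. Nop2 holds TTCCGG and CCGGAA, starting 52 and 38 bases before the start site.

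The deposited values were log2 levels. The E8.5 and E12.5 arrays had the same distribution, with percentiles at most 0.00104 apart, whereas E9.5 and E11.5 each had their own. Arrays of a stage correlated over all target IDs at 0.981 to 0.988 (E8.5), 0.996 to 0.997 (E9.5), 0.992 to 0.995 (E11.5) and 0.989 to 0.991 (E12.5), as Pearson's r across target IDs. Cirh1a in the heterozygotes stood at 51.8%, 55.0% and 52.9% of wild type at E8.5, E9.5 and E12.5, with the 3 heterozygote arrays below the 3 wild-type arrays each time, but it passed the limma test at E9.5 alone: its adjusted p was 0.802 at E8.5, 0.00771 at E9.5 and 0.669 at E12.5. It had no value at E11.5 here. The livers carried hepatoblast transcripts, with Afp at the 98.5th and 98.9th percentile at E11.5 and E12.5, while Fgb read below the median at both (percentiles of 30.6 and 27.1) and Alb at the 49.6th percentile at E11.5. Afp also stood at percentiles of 91.8 and 83.6 in the whole embryos of E8.5 and E9.5, so it does not mark liver alone. At E8.5 genotype could not be told apart from the level of the sex-linked list, which joins Xist with the Y-linked Eif2s3y, Kdm5d, Ddx3y and Uty. The mean log2 level of its 6 target IDs was 3.93 to 4.06 in wild type and 3.13 to 3.20 in heterozygotes. That mean joins X-linked and Y-linked genes, so it does not give the sex of the samples. Heterozygote replicate 1 of that stage was also low in erythroid markers, whose mean log2 level over 5 target IDs was 4.03 there, against up to 8.09 in the other heterozygotes and 7.12 to 7.74 in wild type. Without that array the members' median difference at E8.5 was 0.03, and 0 were called.

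The factors of ribosome production were among the more strongly read transcripts of every stage. A member's place is given as a percentile among the 25206 target IDs with values on all 24 arrays, computed within each array; it depends on the probe as well as on the transcript, so places of different members are a description only. The median member stood at the 76.3rd percentile at E8.5 (n = 40), the 90.7th at E9.5 (n = 60), the 90.8th at E11.5 (n = 60) and the 84.0th at E12.5 (n = 40). In the upper quintile were 16 of 40 members at E8.5 and 48 of 60 at E9.5 in whole embryos, and in liver 48 of 60 at E11.5 and 23 of 40 at E12.5. Over the 40 members with values on every array the medians were 76.3, 88.3, 88.0 and 84.0. The lower place at E8.5 was seen in the 22 of these with 2 or more probes, whose medians were 74.8, 90.7, 89.0 and 89.1 in stage order. In the 18 with 1 probe the medians were 80.7, 77.4, 79.4 and 76.4.

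The highest place belonged to Gar1 at E8.5 and to Npm1 at the later stages, with percentiles of 99.4 (E9.5), 99.5 (E11.5) and 99.4 (E12.5) for Npm1 against 42.6 at E8.5. Gar1, a core protein of the box H/ACA particles, stood at percentiles of 99.5 (E8.5) and 99.1 (E9.5) in whole embryos and 99.2 (E11.5) and 99.3 (E12.5) in liver. Nsa2, a factor of early large-subunit particles, stood at 99.1 (E8.5) and 99.0 (E9.5) in whole embryos and 98.9 (E11.5) and 99.1 (E12.5) in liver. The 6 arrays of a stage agreed closely for such members: for Gar1 at E9.5 they ran from 99.1 to 99.1. Fbl, the methyltransferase of the box C/D particles, stood at 99.2 at E9.5 and 98.9 at E11.5.

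At the other end, 7 members read below the median of the arrays at E9.5, and each of them had 1 probe. They were Utp20, Utp18, Bysl, Utp3, Dkc1, Wdr12 and Wdr36. Dkc1, the pseudouridine synthase of the same H/ACA particles as Gar1, stood at 28.4 (E8.5) and 11.98 (E9.5) in whole embryos and 25.9 (E11.5) and 46.6 (E12.5) in liver. Utp20, a large scaffold protein of the processome, stood at 5.44 (E8.5) and 6.95 (E9.5) in whole embryos and 18.2 (E11.5) and 17.2 (E12.5) in liver. Such rows carry little signal, and their values cannot show whether the transcript is scarce or the probe poor; none of the 7 entered the tests at E9.5 or E11.5.

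**Figure D1:**
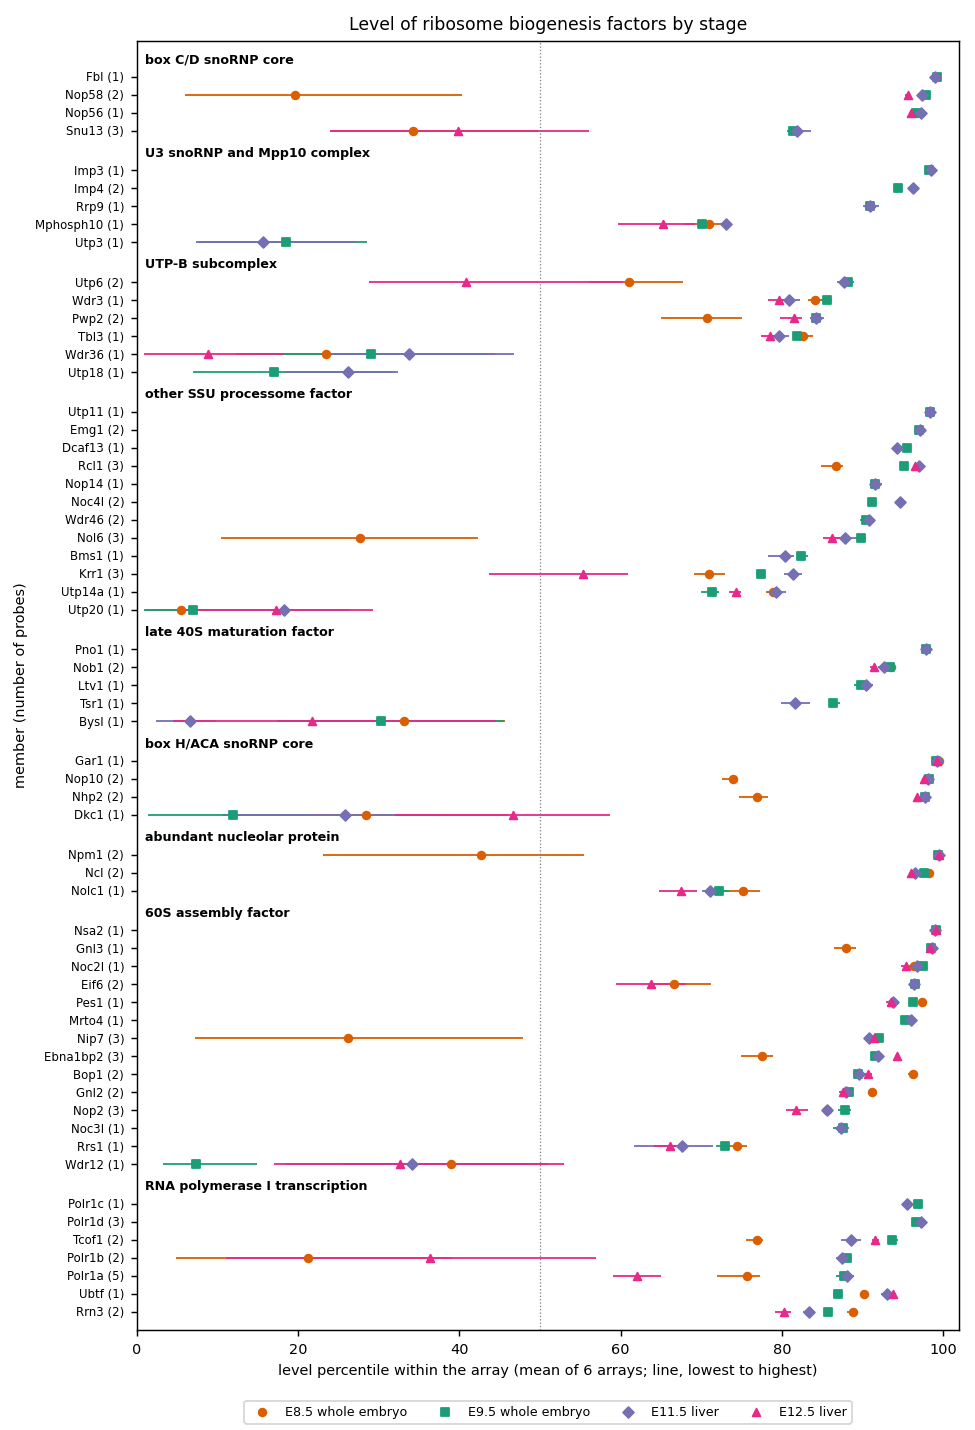
Level of the 60 members by stage, as the percentile within an array (x axis, percent of target IDs below), with 1 row per member grouped by role and the number of probes in parentheses; points are means of 6 arrays and lines run from the lowest to the highest array. Most members sit above 80 at E9.5 and E11.5, and Nop58, Nol6, Nip7 and Npm1 drop below 50 at E8.5 alone.

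4 members read at background at E8.5 alone, that is, below the median there and in the upper quintile at the 3 other stages: the nucleolar chaperone Npm1, the C/D core protein Nop58, the large-subunit factor Nip7 and the processome protein Nol6. Npm1 read 2.55, 2.57 and 2.00 in wild type and 2.48, 2.96 and 2.42 in heterozygotes at E8.5, and 13.43, 13.43 and 13.36 in wild type and 13.42, 13.41 and 13.29 in heterozygotes at E12.5 on the same scale. All 6 E8.5 arrays were thus near or below the array median of 2.70, and all 6 E12.5 arrays were far above it. Nop58 read 1.60, 2.21 and 1.804 in wild type and 1.72, 2.39 and 1.82 in heterozygotes at E8.5, against 10.80, 10.58 and 10.56 in wild type and 10.82, 10.77 and 10.69 in heterozygotes at E12.5. Nip7 read 2.02, 2.08 and 2.31 in wild type and 1.64, 2.62 and 1.81 in heterozygotes at E8.5, and Nol6 read 2.19, 1.73 and 2.01 in wild type and 2.04, 2.44 and 2.21 in heterozygotes. The same 4 members were marked with the 3 other stages asked only to lie above the median, and with percentiles over all target IDs of a stage.

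Each of the 4 has 2 or 3 probes. Among all target IDs in the upper quintile at the 3 other stages, 0.835% of 2035 with 1 probe fell below the median at E8.5, against 10.6% of 1926 with 2 or more; among the members it was 0 of 7 and 4 of 16. A further 4 members, Utp6, Eif6, Polr1b and Snu13, also with 2 or 3 probes, were low at both E8.5 and E12.5 and high at E9.5 and E11.5, by more than 25 percentile points. Eif6, which keeps the large subunit from joining the small one too early, stood at 66.6 (E8.5) and 96.5 (E9.5) in whole embryos and 96.4 (E11.5) and 63.8 (E12.5) in liver. Snu13, the protein that first binds the C/D guide RNAs, stood at 34.3 (E8.5) and 81.4 (E9.5) in whole embryos and 81.8 (E11.5) and 39.8 (E12.5) in liver. Why these rows were low in the 2 stages that share a distribution was not tested, and the differences of these 8 members between stages are given with that mark.

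No member passed the test between heterozygote and wild type at any stage. By limma with Benjamini-Hochberg adjustment over all target IDs tested, 0 of 29 members were called at E8.5 and 0 of 53 at E9.5 in whole embryos, and in liver 0 of 53 at E11.5 and 0 of 33 at E12.5, at an adjusted p threshold of 0.05. Of all target IDs tested, 0.0238%, 0.00635%, 0% and 0% were called at the 4 stages, so few calls were made anywhere. At an unadjusted p under 0.05 there were 0, 1, 0 and 1 members, against 3.77%, 11.1%, 2.63% and 3.86% of all target IDs. The lowest adjusted p of a member was 1.00 at E8.5, E11.5 and E12.5 and 0.273 at E9.5. The members tested were those with values whose mean exceeded the median of the stage.

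The members' differences lay close to 0. Their median was 0.02 on the log2 scale at E8.5 and 0.00 at E9.5; liver had 0.03 at E11.5 and 0.09 at E12.5, where the median of all target IDs tested was 0.00 at each stage. These medians moved with the filter and with single arrays. With the filter at the upper quartile the E8.5 median was -0.0146 and the E12.5 median 0.0236. Leaving out 1 array gave 0.0159 to 0.0706 at E8.5, -0.0140 to 0.0298 at E9.5, 0.0124 to 0.0537 at E11.5 and 0.0256 (without heterozygote replicate 2) to 0.0798 at E12.5, below the 0.09 of all 6 arrays in each case. Positive differences, heterozygote above wild type, were found in 16 of 29, 28 of 53, 33 of 53 and 25 of 33 members. That is 55.2%, 52.8%, 62.3% and 75.8%, against 50.4%, 50.02%, 49.6% and 50.7% of all target IDs. The members share the same arrays, so these counts are not counts of independent samples. In these bulk samples fewer cells of a type and less RNA per cell cannot be told apart.

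The arrays at E9.5 bounded the members' differences most closely. The 95% intervals of all 53 tested members lay between 82.8% (Polr1a) and 123% (Bop1) of the wild-type level there. Within 80% to 125% of wild type lay the intervals of 53 of 53 members at E9.5, 41 of 53 at E11.5, 13 of 33 at E12.5 and 0 of 29 at E8.5, against 87.8%, 69.0%, 23.1% and 0.278% of all target IDs. At E8.5 the intervals ran from 48.0% (Utp6) to 328% (Pwp2) of wild type, and those of Utp6, Pwp2 and Eif6 reached past a 2-fold change. At E12.5 they ran from 63.1% (Krr1, by its target ID HRB2) to 256% (Mphosph10), both low on these arrays. The other target ID of Krr1, KRR1, stood higher at that stage, at a percentile of 76.9 against 55.3.

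**Figure D2:**
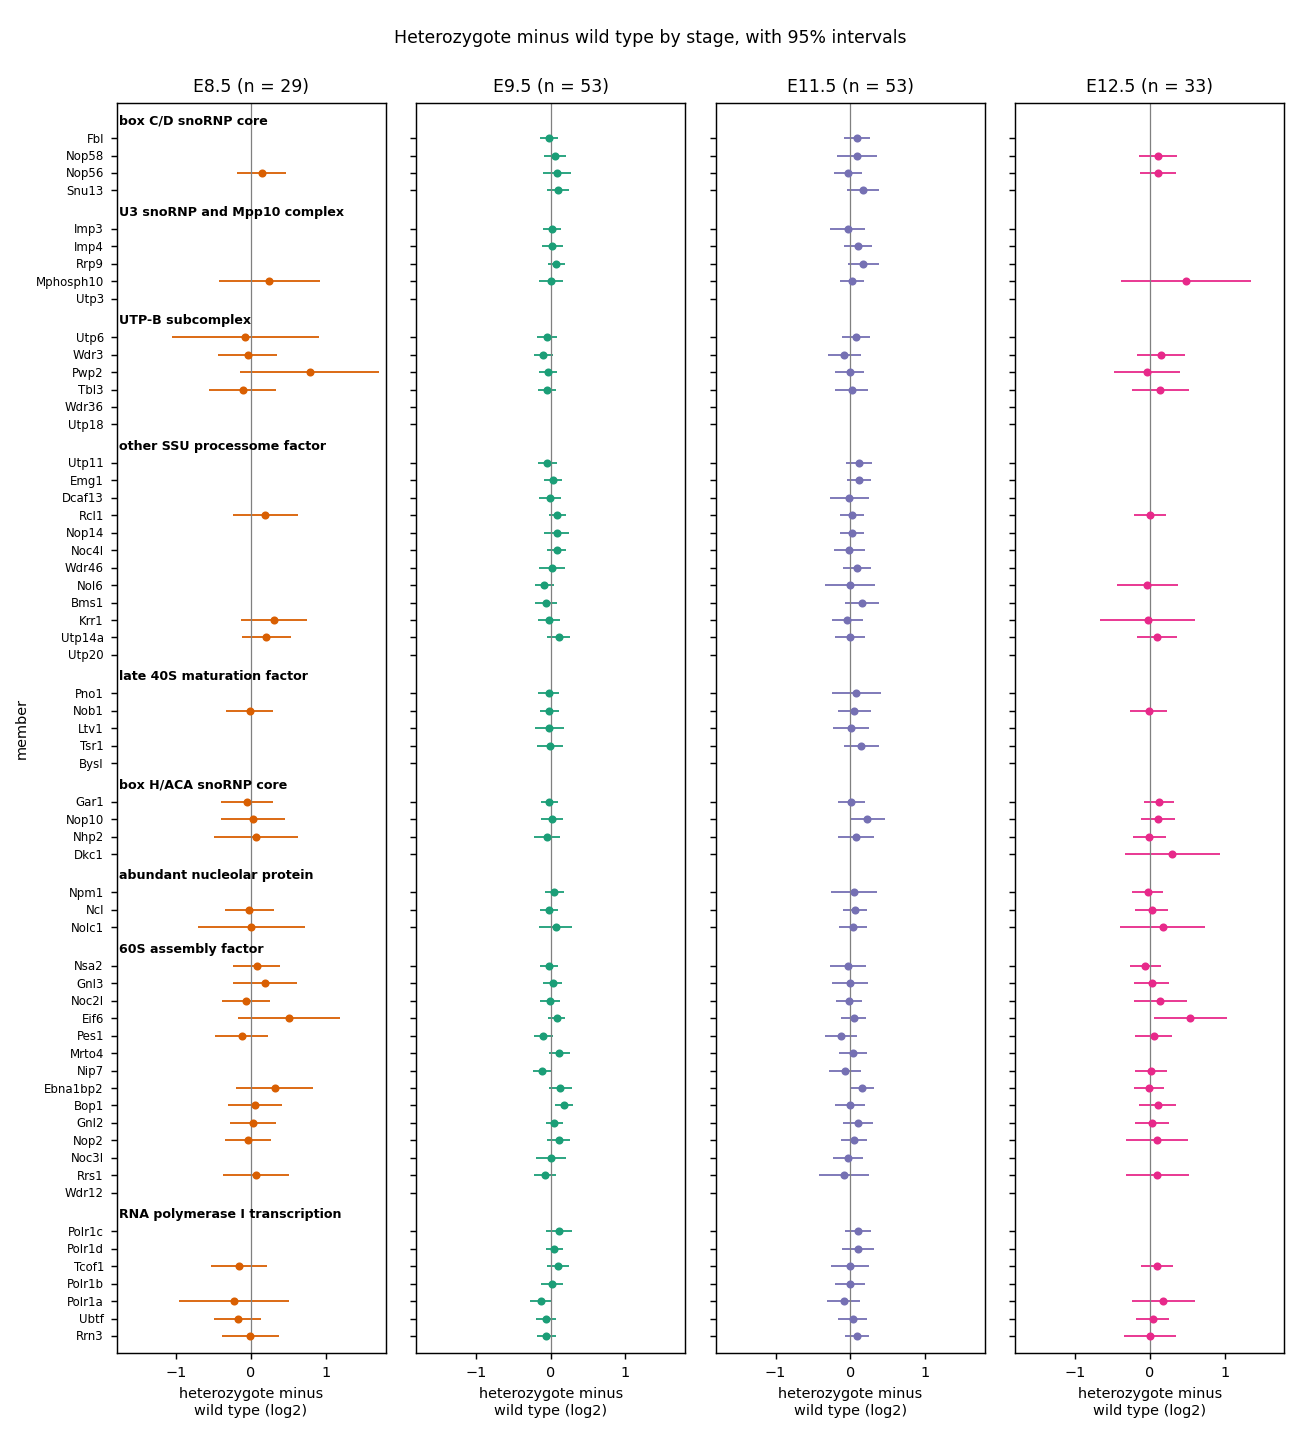
Heterozygote minus wild type for each tested member (x axis, log2; 3 arrays against 3) in the 4 stages, with points for the limma estimate and lines for its 95% interval; members below the stage median have no point. The intervals are narrowest at E9.5 and widest at E8.5, and 0 of 29, 0 of 53, 0 of 53 and 0 of 33 members passed the adjusted test.

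In the box C/D particles, which place methyl groups on ribosomal RNA, the E9.5 and E11.5 differences lay between -0.03 and 0.17. Fbl read 14.27, 14.31 and 14.21 in wild type and 14.26, 14.22 and 14.24 in heterozygotes at E9.5, a difference of -0.03 (SE 0.0538), and 13.20, 13.10 and 13.21 in wild type and 13.25, 13.21 and 13.34 in heterozygotes at E11.5, a difference of 0.09 (SE 0.0767). The genotypes overlapped at both stages. Nop56, a scaffold of the particle, read 11.13, 10.90 and 11.03 in wild type and 11.14, 11.18 and 11.18 in heterozygotes at E8.5, where the heterozygote arrays lay above the wild-type ones by 0.15 (SE 0.136). At E12.5 Nop56 read 10.80, 10.80 and 10.81 in wild type and 10.77, 10.97 and 11.004 in heterozygotes, with overlap and a difference of 0.11 (SE 0.0980). Snu13 read 9.29, 9.44 and 9.26 in wild type and 9.44, 9.47 and 9.37 in heterozygotes at E9.5 and 8.65, 8.68 and 8.75 in wild type and 9.01, 8.88 and 8.68 in heterozygotes at E11.5. It was the C/D member of lowest p at both, with differences of 0.10 (SE 0.0642) and 0.17 (SE 0.0950), and the genotypes overlapped.

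The proteins of the U3 particle and its Mpp10 complex hold the U3 RNA on the precursor. Imp3 read 13.33, 13.33 and 13.27 in wild type and 13.33, 13.38 and 13.27 in heterozygotes at E9.5 and 12.84, 12.66 and 12.88 in wild type and 12.59, 12.79 and 12.90 in heterozygotes at E11.5, differences of 0.02 (SE 0.0548) and -0.04 (SE 0.102) with overlap. Rrp9, which binds U3 directly, read 10.91, 10.91 and 10.90 in wild type and 11.01, 10.94 and 11.01 in heterozygotes at E9.5; all 3 heterozygote arrays were above the wild-type arrays, by 0.08 (SE 0.0515). At E11.5 Rrp9 read 10.05, 10.21 and 10.19 in wild type and 10.21, 10.47 and 10.29 in heterozygotes, a difference of 0.17 (SE 0.0915), and 1 heterozygote array lay within the wild-type range. Mphosph10, the complex's namesake, read 5.33, 4.86 and 4.36 in wild type and 5.12, 5.36 and 4.82 in heterozygotes at E8.5 and 3.24, 3.62 and 4.33 in wild type and 3.65, 4.39 and 4.60 in heterozygotes at E12.5. The wild-type arrays alone spanned more at each than the differences of 0.25 (SE 0.282) and 0.48 (SE 0.358). Imp4 had 0.02 (SE 0.0612) and 0.11 (SE 0.0827) at E9.5 and E11.5, and Utp3 did not enter any test.

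The UTP-B subcomplex, a scaffold that joins the precursor soon after t-UTP, had all 4 tested members slightly lower at E9.5, from -0.10 to -0.04, with no call. Wdr3 read 10.07, 10.11 and 10.06 in wild type and 9.90, 10.03 and 10.01 in heterozygotes; the 3 heterozygote arrays lay below the wild-type arrays, by -0.10 (SE 0.0571). At E8.5 Wdr3 read 7.63, 7.73 and 7.91 in wild type and 7.65, 7.57 and 7.92 in heterozygotes and at E12.5 6.88, 6.82 and 6.53 in wild type and 6.99, 6.76 and 6.93 in heterozygotes. There the genotypes overlapped, with differences of -0.04 (SE 0.165) and 0.15 (SE 0.132). Pwp2 had the lowest p of all members at E8.5, where it read 5.15, 3.85 and 4.66 in wild type and 4.93, 5.83 and 5.25 in heterozygotes. That difference of 0.78 (SE 0.386) had an unadjusted p of 0.0854, and the wild-type arrays alone spanned more than it. At E12.5 Pwp2 read 7.23, 7.39 and 6.99 in wild type and 6.85, 7.27 and 7.40 in heterozygotes, a difference of -0.03 (SE 0.181). Utp6 read 10.48, 10.55 and 10.39 in wild type and 10.47, 10.36 and 10.45 in heterozygotes at E9.5 and 9.62, 9.64 and 9.49 in wild type and 9.56, 9.71 and 9.72 in heterozygotes at E11.5, with differences of -0.05 (SE 0.0622) and 0.08 (SE 0.0820) and overlap at both. Tbl3 had -0.11 (SE 0.186), -0.05 (SE 0.0540), 0.02 (SE 0.0980) and 0.14 (SE 0.157) at the 4 stages, and Utp18 and Wdr36 did not enter.

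Among the other processome factors, 6 of 11 tested members were positive at E9.5 and 6 of 11 at E11.5, with medians of 0.02 and 0.02. Utp11 read 13.44, 13.32 and 13.34 in wild type and 13.35, 13.28 and 13.34 in heterozygotes at E9.5 and 12.61, 12.69 and 12.63 in wild type and 12.68, 12.78 and 12.82 in heterozygotes at E11.5, with overlap and differences of -0.04 (SE 0.0571) and 0.12 (SE 0.0752). Rcl1, a homolog of RNA cyclases that acts in early cleavage, read 11.93, 11.95 and 11.89 in wild type and 12.03, 12.005 and 12.002 in heterozygotes at E9.5. The 3 heterozygote arrays were the higher ones, by 0.09 (SE 0.0511). It read 8.48, 7.90 and 8.18 in wild type and 8.35, 8.38 and 8.40 in heterozygotes at E8.5 and 11.02, 11.09 and 11.11 in wild type and 10.996, 11.13 and 11.10 in heterozygotes at E12.5, with differences of 0.19 (SE 0.182) and 0.00 (SE 0.0876). Emg1, a methyltransferase of the small subunit's RNA, read 11.85, 11.91 and 11.93 in wild type and 11.97, 12.03 and 12.03 in heterozygotes at E11.5, with the heterozygote arrays above the wild-type ones by 0.11 (SE 0.0710). Krr1, which binds the precursor next to U3, read 4.93, 4.58 and 4.94 in wild type and 4.99, 5.38 and 5.01 in heterozygotes at E8.5, again without overlap, by 0.31 (SE 0.185). This is the target ID HRB2; the other, KRR1, went the opposite way without overlap, at 5.70, 5.83 and 5.72 in wild type and 5.64, 5.60 and 5.68 in heterozygotes, a difference of -0.11 (SE 0.130). Utp14a, an activator of the processome's helicase, read 5.60, 5.76 and 5.49 in wild type and 5.71, 5.80 and 5.62 in heterozygotes at E12.5, a difference of 0.09 (SE 0.110) with overlap. Nol6 had -0.09 (SE 0.0566) at E9.5, its heterozygote arrays below wild type. Bms1, Dcaf13, Noc4l, Nop14 and Wdr46 ran from -0.06 to 0.15 at E9.5 and E11.5, and Utp20 did not enter.

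The late factors of the small subunit act as it leaves the nucleolus. All 4 tested members were below wild type at E9.5, with differences of -0.03 to -0.01, and all 4 above it at E11.5, by 0.01 to 0.15. Pno1 read 13.09, 13.12 and 12.94 in wild type and 12.99, 13.02 and 13.05 in heterozygotes at E9.5 and 12.57, 12.06 and 12.29 in wild type and 12.19, 12.35 and 12.61 in heterozygotes at E11.5, with differences of -0.03 (SE 0.0615) and 0.08 (SE 0.145). Tsr1, a relative of the GTPase Bms1, read 8.76, 8.74 and 8.53 in wild type and 8.72, 8.77 and 8.99 in heterozygotes at E11.5, a difference of 0.15 (SE 0.102). Nob1, the nuclease that trims the end of the small subunit's RNA, read 9.97, 10.11 and 9.97 in wild type and 10.01, 9.95 and 10.02 in heterozygotes at E8.5 and 9.39, 9.49 and 9.30 in wild type and 9.27, 9.38 and 9.48 in heterozygotes at E12.5. Its differences there were -0.02 (SE 0.131) and -0.02 (SE 0.103), and the genotypes overlapped in each of these pairs. Ltv1 had -0.02 (SE 0.0868) and 0.01 (SE 0.108) at E9.5 and E11.5, and Bysl did not enter.

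The box H/ACA particles convert uridines to pseudouridine. Gar1 read 13.50, 13.59 and 13.58 in wild type and 13.50, 13.65 and 13.35 in heterozygotes at E8.5 and 14.11, 14.17 and 14.09 in wild type and 14.08, 14.10 and 14.14 in heterozygotes at E9.5, with overlap and differences of -0.05 (SE 0.144) and -0.02 (SE 0.0528). At E11.5 it read 13.60, 13.49 and 13.63 in wild type and 13.51, 13.59 and 13.65 in heterozygotes, a difference of 0.01 (SE 0.0794). At E12.5 it read 13.15, 13.05 and 13.05 in wild type and 13.21, 13.21 and 13.20 in heterozygotes, and there the 3 heterozygote arrays lay above the wild-type ones, by 0.12 (SE 0.0831). Nhp2, a core protein that binds the guide RNA, read 13.11, 13.11 and 12.89 in wild type and 13.09, 12.91 and 12.98 in heterozygotes at E9.5, a difference of -0.05 (SE 0.0765). Nop10, the smallest core protein, read 12.18, 12.30 and 12.55 in wild type and 12.61, 12.498 and 12.60 in heterozygotes at E11.5; heterozygote replicate 2 lay within the wild-type range, and the difference was 0.23 (SE 0.102) with an unadjusted p of 0.0549. Dkc1 entered at E12.5 alone, with 0.30 (SE 0.259).

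Of the abundant nucleolar proteins, Npm1 read 14.47, 14.44 and 14.54 in wild type and 14.48, 14.61 and 14.51 in heterozygotes at E9.5 and 13.87, 14.10 and 13.81 in wild type and 14.14, 14.13 and 13.68 in heterozygotes at E11.5, with differences of 0.05 (SE 0.0591) and 0.05 (SE 0.137). At E12.5 its difference was -0.03 (SE 0.0871). Ncl, nucleolin, which binds the precursor and nucleolar chromatin, read 12.15, 11.92 and 12.03 in wild type and 12.005, 12.002 and 12.03 in heterozygotes at E8.5, a difference of -0.02 (SE 0.136), and 11.74, 11.68 and 11.64 in wild type and 11.77, 11.71 and 11.76 in heterozygotes at E11.5, a difference of 0.06 (SE 0.0714). Nolc1, a phosphoprotein that shuttles small nucleolar RNPs, read 3.80, 4.57 and 4.22 in wild type and 4.65, 4.33 and 4.13 in heterozygotes at E12.5, a difference of 0.17 (SE 0.233). The genotypes overlapped in every one of these comparisons.

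The 14 factors of large-subunit assembly held the member of lowest p at every stage after E8.5. Bop1, a partner of Pes1 and Wdr12 in a complex that processes the large subunit's RNA, read 10.54, 10.57 and 10.57 in wild type and 10.80, 10.70 and 10.70 in heterozygotes at E9.5. Its 3 heterozygote arrays lay above the wild-type arrays by 0.17 (SE 0.0543), with an unadjusted p of 0.00995 and an adjusted p of 0.273. Pes1, its partner, went the other way at that stage without overlap, at -0.10 (SE 0.0562), and Wdr12 did not enter there. Ebna1bp2, which acts in early large-subunit particles, read 10.32, 10.31 and 10.41 in wild type and 10.49, 10.53 and 10.50 in heterozygotes at E11.5; the heterozygote arrays were the higher ones, by 0.16 (SE 0.0717), with an unadjusted p of 0.0522. Nsa2 read 12.78, 12.74 and 12.85 in wild type and 12.78, 12.94 and 12.88 in heterozygotes at E8.5 and 14.07, 14.05 and 14.08 in wild type and 14.10, 14.05 and 14.001 in heterozygotes at E9.5. In liver it read 13.36, 13.07 and 13.21 in wild type and 13.04, 13.17 and 13.34 in heterozygotes at E11.5 and 12.93, 12.85 and 12.88 in wild type and 12.78, 12.81 and 12.88 in heterozygotes at E12.5. It was the strongest row of this group at each stage, the genotypes overlapped at all 4, and its differences were 0.07 (SE 0.133), -0.02 (SE 0.0526), -0.03 (SE 0.106) and -0.06 (SE 0.0850).

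Eif6 was the one member whose 3 heterozygote arrays lay above the 3 wild-type arrays at more than 1 stage. It read 3.97, 3.98 and 3.71 in wild type and 5.01, 4.15 and 4.02 in heterozygotes at E8.5 and 3.23, 3.63 and 3.49 in wild type and 3.88, 3.73 and 4.37 in heterozygotes at E12.5. In these 2 stages it was low, and the differences were 0.51 (SE 0.285) and 0.54 (SE 0.200), the latter with an unadjusted p of 0.0344. At E9.5, where it was among the strongly read transcripts, it read 12.35, 12.41 and 12.33 in wild type and 12.44, 12.46 and 12.43 in heterozygotes, again without overlap but with a difference of 0.08 (SE 0.0522). At E11.5 it read 11.68, 11.61 and 11.70 in wild type and 11.68, 11.78 and 11.68 in heterozygotes, a difference of 0.05 (SE 0.0738), and the genotypes overlapped. Of the 16402 target IDs with values on all 24 arrays that were above the median in at least 1 stage, 11 (0.0671%) had heterozygote arrays above wild type without overlap at 3 or more stages, and Eif6 is 1 of these; 7 had the opposite. Eif6 was singled out after its values were seen.

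**Figure D3:**
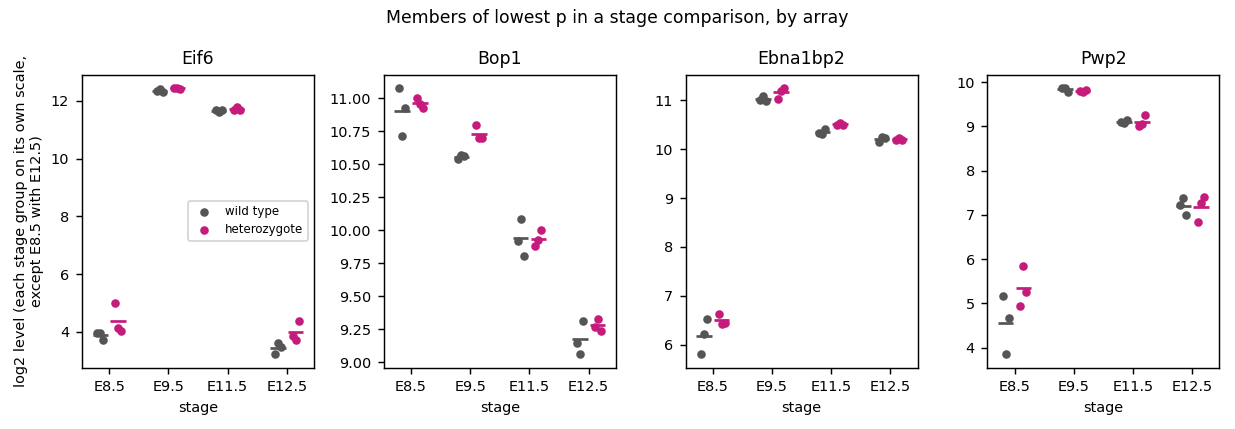
Log2 level by array for Eif6, Bop1, Ebna1bp2 and Pwp2 in wild type (grey) and heterozygotes (magenta) at the 4 stages, with short lines for the means of 3 arrays; each stage has its own scale except that E8.5 and E12.5 share one. The heterozygote points of Eif6 lie above the wild-type points at E8.5, E9.5 and E12.5, and those of Bop1 at E9.5.

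Transcription by RNA polymerase I was covered by 4 subunits, of which Polr1c and Polr1d also serve RNA polymerase III, and by the factors Ubtf, Rrn3 and Tcof1. Polr1a, the largest subunit, read 10.47, 10.41 and 10.41 in wild type and 10.33, 10.39 and 10.19 in heterozygotes at E9.5, where the heterozygote arrays lay below the wild-type ones by -0.13 (SE 0.0633). Polr1c read 12.41, 12.499 and 12.63 in wild type and 12.73, 12.502 and 12.62 in heterozygotes at E9.5 and 11.30, 11.34 and 11.35 in wild type and 11.34, 11.52 and 11.43 in heterozygotes at E11.5, with overlap and differences of 0.11 (SE 0.0774) and 0.10 (SE 0.0772). Polr1d read 11.80, 12.07 and 12.03 in wild type and 12.07, 12.15 and 11.98 in heterozygotes at E11.5, a difference of 0.10 (SE 0.0950). Ubtf, which opens the ribosomal gene repeats for the polymerase, read 9.10, 9.25 and 9.21 in wild type and 9.02, 8.99 and 9.01 in heterozygotes at E8.5; its 3 heterozygote arrays were the lower ones, by -0.18 (SE 0.130). The second target ID of Ubtf overlapped at that stage, where it stood slightly higher (percentile of 90.8 against 90.2). At E12.5 Ubtf read 10.09, 10.08 and 10.02 in wild type and 10.20, 10.01 and 10.09 in heterozygotes, a difference of 0.04 (SE 0.0911). Tcof1, the treacle protein, which holds the polymerase and its factor together, read 9.43, 9.37 and 9.36 in wild type and 9.55, 9.46 and 9.42 in heterozygotes at E12.5, a difference of 0.09 (SE 0.0867) with overlap. Polr1b entered at E9.5 and E11.5 and Rrn3, the factor that recruits the polymerase, at all 4 stages, with differences between -0.06 and 0.09.

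Members whose genotypes did not overlap at a stage were thus few. At E8.5 they were 4 above wild type (Krr1 by HRB2, Eif6, Nop56 and Utp14a) and 1 below (Ubtf) of 29 tested, where 3.96% of all target IDs lay above without overlap and 3.02% below. At E9.5 they were 5 above (Bop1, Eif6, Rcl1, Rrp9 and Polr1d) and 4 below (Nol6, Pes1, Polr1a and Wdr3) of 53, against 8.33% above and 9.27% below, 17.6% together and close to the members' own share. At E11.5 they were 3 above (Ebna1bp2, Emg1 and Rrn3) of 53 and 0 below, against 4.14% and 4.05%, or 8.19% together. At E12.5 they were 2 above (Eif6 and Gar1) of 33 and 0 below, against 3.52% and 3.6%, or 7.13% together. At E8.5 the same sum was 6.98%.

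At E9.5, the stage with the largest share of target IDs at an unadjusted p under 0.05, 5 of 9 lists of cell type and state markers were also apart. The mean log2 level of 6 hepatoblast target IDs was 8.60 to 8.74 in wild type and 8.89 to 9.72 in heterozygotes, with Alb near the bottom of the arrays (percentile 5.77). That of 4 visceral endoderm target IDs was 7.79 to 7.92 and 8.14 to 8.97. That of 4 cardiac target IDs was 11.09 to 11.14 and 11.16 to 11.42. Neural markers (7 target IDs) were lower, 7.91 to 7.95 in wild type and 7.70 to 7.80 in heterozygotes, and so were proliferation markers (5 target IDs), 11.68 to 11.72 and 11.57 to 11.64. At E12.5, 2 of the 9 lists were apart, endothelial markers higher in heterozygotes (5.55 to 5.74 against 5.40 to 5.53) and visceral endoderm markers lower (3.08 to 3.14 against 3.15 to 3.44). At E11.5 it was 1 list, neural markers (6.83 to 6.89 against 6.92 to 7.02). Above the median at E12.5 were 4 of 4 endothelial target IDs but only 1 of 4 visceral endoderm ones. At E11.5 only 2 of 7 neural target IDs were above it, so these last 2 lists carried little signal. The part of any of these marker lists in the members' differences was not tested.

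Averaged over the 4 stages, 29 of 36 members tested were above wild type (80.6%, against 50.3% of all target IDs), with a median of 0.04 against 0.00. A target ID entered this fit if its mean level lay above the median in at least 1 stage. The count so includes 8 members whose mean percentile was below 50 at 1 or more stages (Npm1, Nop58, Nip7, Nol6, Snu13, Polr1b, Utp6 and Dkc1). That of Dkc1 was below 50 at all 4, and Dkc1 entered by its mean level at E12.5 alone. Of the 28 members above the median at all 4 stages 23 were above wild type (82.1%, against 51.6% of 8929 target IDs), with a median of 0.0368. None was called: 0 of 36 passed, as did 0% of the 16402 target IDs, and 2 members had an unadjusted p under 0.05, against 5.36% of all. These were Eif6, with 0.29 (SE 0.0961), an unadjusted p of 0.00619 and an adjusted p of 0.691, and Ebna1bp2, with 0.15 (SE 0.0630). The 95% intervals of 30 of the 36 lay within 80% to 125% of wild type, against 69.6% of all target IDs. In the same fit 8 of the 36 members had a heterozygote mean above the wild-type mean at all 4 stages (22.2%, against 7.19% of all target IDs), and 0 below it at all 4, against 7.38%. Among the 28 it was 6 (21.4%, against 7.96%) and 0, against 7.81%. These are counts over members that share arrays and carry no test. Over the 40 members with values at every stage, tested or not, 9 were above at all 4: Mphosph10, Utp20, Gnl2, Eif6, Nop58, Nop10, Nolc1, Rcl1 and Snu13. Some of these differences were very small, at 0.00105 for Mphosph10 at E9.5 and 0.000121 for Rcl1 at E12.5. Neither other target ID of Mphosph10 was above at all 4. Of these, 5730405D16RIK averaged 2.60 in wild type and 2.23 in heterozygotes at E8.5. Utp20 was below the median of the arrays at all 4 stages, Snu13 at E8.5 and E12.5, and Nop58 at E8.5. Bysl, also below the median of the arrays throughout, was lower in heterozygotes at all 4. Gnl2, a GTPase of the late nucleolar large subunit, had differences of 0.03 (SE 0.128), 0.05 (SE 0.0528), 0.10 (SE 0.0873) and 0.02 (SE 0.0927), each smaller than 2 standard errors.

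The 20 members absent at E8.5 and E12.5 could be averaged over E9.5 and E11.5 alone, a fit added after the data were seen. Of 53 members tested there, 36 were above wild type, with a median of 0.03, and 0 were called, against 0.00561% of all target IDs; 3 members had an unadjusted p under 0.05, against 6.9% of all. The 53 intervals lay between 83.2% and 120% of wild type. The difference of the heterozygote effect between liver and whole embryo was not called for any of 36 members either, against 0.0061% of all target IDs; 0 had an unadjusted p under 0.05, against 4.87%. For E11.5 against E9.5 alone it was 0 of 53 members, against 5.02% of all target IDs. The lowest p of a member was that of Ubtf (0.15, SE 0.0843), for which the genotypes stood apart at E8.5.

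Other genes of ribosome production, outside the 60 members, did not pass the test either. Of 100 listed genes 95 had a target ID, and 0 of 63, 82, 81 and 65 tested at E8.5, E9.5, E11.5 and E12.5 were called by limma, nor any of 67 in the averaged fit; 0, 4, 3 and 0 had an unadjusted p under 0.05 at the 4 stages. Their medians were 0.02, 0.02, 0.01 and 0.04. Positive differences were found in 57.1%, 63.4%, 53.1% and 67.7% of them at the 4 stages. In the averaged fit 48 of 67 were above wild type (71.6%), so such a lean was not particular to the members. At E9.5 the lowest p belonged to Mdn1, the giant ATPase that strips factors off the large subunit (-0.33, SE 0.0650, adjusted p = 0.146), and the RNA helicase Ddx27 (0.21, SE 0.0564, adjusted p = 0.236). At E8.5 these were the helicase Ddx10 (0.51, SE 0.245) and the exosome subunit Exosc3 (0.27, SE 0.166), at E11.5 Rrp1 (0.19, SE 0.0747) and Rrp1b (-0.17, SE 0.0703), and at E12.5 Exosc3 (0.76, SE 0.425) and the GTPase Gtpbp4 (0.14, SE 0.0846). Of the 3 genes of the Myc group listed, which drive ribosome production in many cells, 2 target IDs were tested at each stage and 0 were called.

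Levels of most members differed between liver and whole embryo. On the 12 arrays of E8.5 and E12.5, 13 of 34 members were higher and 19 lower in E12.5 liver at an adjusted limma p under 0.05, against 29.3% and 44.3% of all target IDs (73.6% in either direction). Of these 13, Npm1, Nop58, Nip7 and Nol6 are marked as background at E8.5. Ebna1bp2, Gnl3, Nhp2, Nop10, Pwp2, Rcl1 and Tcof1 are not marked, but their mean percentile was also lowest at E8.5. That of Ubtf and Dkc1 was not. Dkc1 stood low on the arrays at both stages, however, at mean percentiles of 28.4 (E8.5) and 46.6 (E12.5). The call of Dkc1 was lost in wild type alone. On the 12 arrays of E9.5 and E11.5, normalized together, 13 of 53 were higher and 18 lower in E11.5 liver, against 36.8% and 40.3% (77.1% in either direction). Stage, tissue and array run cannot be told apart in either pair. Erythroid markers moved with both: their mean level was 4.03 to 8.09 at E8.5 and 9.82 to 10.5 at E9.5; in liver it was 11.8 to 12.3 at E11.5 and 12.6 to 12.7 at E12.5, and their part was not tested.

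Of the 33 members tested in both pairs, which share no array, 9 (27.3%) were lower in liver in both, close to the 28.9% of 12570 target IDs tested in both: Pes1, Wdr3, Ncl, Nop2, Noc2l, Nob1, Rrn3, Rrs1 and Tbl3. Ncl, at 12.94, 12.97 and 12.87 in wild type and 12.85, 12.94 and 12.92 in heterozygotes at E9.5, was lower by -0.46 at E11.5 and by -1.16 at E12.5 against E8.5, as signed log2 differences of liver minus embryo. Pes1 had -0.77 and -1.47. Rrs1, a factor that brings the small RNA of the large subunit into the particle, had -0.48 and -1.66, and Rrn3 had -0.34 and -1.83. The median of all target IDs was -0.03 in the E11.5 pair and -0.25 in the E12.5 pair, and the members' medians were 0.01 and -0.41.

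Higher in liver in both pairs were 3 of the 33 members (9.09%), against 19.8% of all target IDs. Rcl1 had 0.67 and 2.79, and Ubtf had 1.16 and 0.98. The third, Npm1 (0.20 and 10.89), is among the members marked as background at E8.5. The call of Ubtf rests on the target ID A930005G04RIK; the target ID named UBTF had -0.37 and -1.05, both past the threshold. The E11.5 pair was also run with each array's median subtracted in place of the joint normalization. That moves the median of all target IDs to -0.51 and that of the members to -0.99. With it 53 of 53 members were called. The share of all target IDs called with it is not given here, so this count cannot be read as a trait of the members. The higher calls of Rcl1, Npm1 and 9 others turned lower. Ubtf and Utp14a alone kept a higher level in E11.5 liver under both scalings.

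The pairs disagreed for 9 of the 33 members (27.3%), against 14.5% of all target IDs. Utp14a (0.98 and -0.97), Krr1 (0.53 and -1.96), Mphosph10, Nop56 and Gar1 were higher in E11.5 liver, 4 of these 5 lower once medians were subtracted, and lower in E12.5 liver. The values of Krr1 are those of HRB2; the target ID KRR1 was reversed in both pairs (-0.91 and 0.52, both past the threshold). The second tested target ID of Mphosph10, 5730405D16RIK, was lower in E11.5 liver (-0.43). Tcof1 (-1.03 and 3.20), Nip7, Nop58 and Nol6 were lower in E11.5 liver and higher in E12.5 liver. The last 3 of these are the other members marked as background at E8.5. Tcof1 is not marked, but with 2 probes it stood at a percentile of 76.9 at E8.5, against 93.7 (E9.5), 88.6 (E11.5) and 91.5 (E12.5). Of the members with 1 probe, 3 were higher and 10 lower of 14 in the E12.5 pair, with a median of -0.63. Of those with 2 or more probes, 10 were higher and 9 lower of 20, with a median of 0.91. Shares of all target IDs with 1 probe, or with 2 or more, are not given for this pair. The split is therefore a description and no result about the members.

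**Figure D4:**
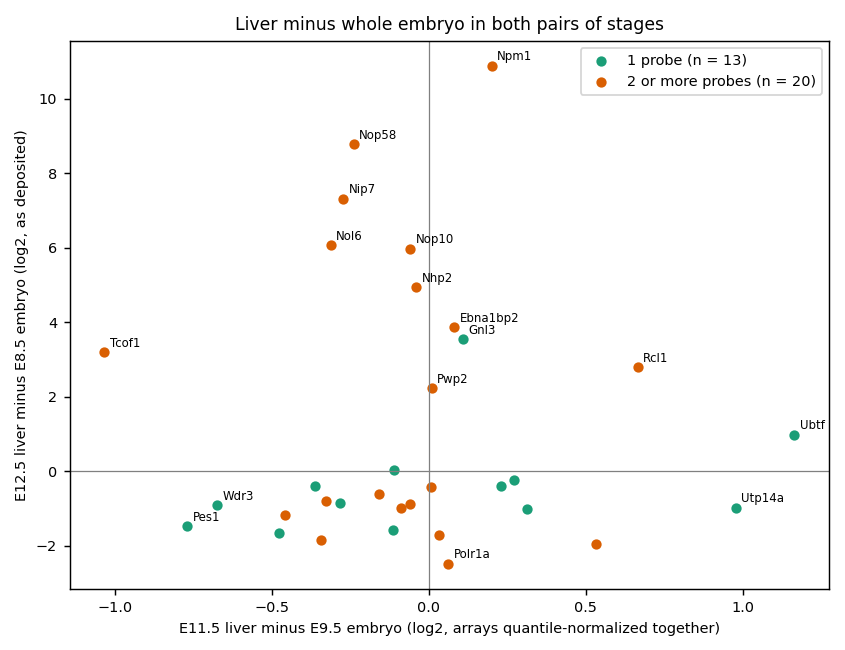
Liver minus whole embryo for the 33 members tested in both pairs of stages (x axis, E11.5 minus E9.5; y axis, E12.5 minus E8.5; log2), coloured by the number of probes. Values above 2 on the y axis belong to members with 2 or more probes, except Gnl3, and members in the lower left were lower in liver in both pairs.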

How the data were processed

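Transcript levels of 24 samples were deposited as log2 expression values per target ID by the authors, in 1 table with a column for each sample. The background correction, normalization method and software behind these deposited log2 values are not given in the sources used here. Arrays give no read depth; their number limits the precision. A further 48 columns of unnormalized signal and detection p under names that match no label were not used, and of those deposited tables only the probe identifiers (another kind of value, used to count probes) were read.

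The members, roles, lists and tests were chosen with earlier results of these data known. The 66 member target IDs were found by RefSeq symbol or an unambiguous synonym. Of all target IDs 13425 matched a symbol and 8110 a synonym, and 9948 kept their own name. For a member with several target IDs, the one of highest mean percentile is described.

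Heterozygote minus wild type was tested stage by stage with lmFit and eBayes of limma 3.58.1 (R 4.3.3). The target IDs with a mean above the stage median entered, two-sided p-values took the Benjamini-Hochberg adjustment over all of these, and the threshold was 0.05. A fit of all 24 arrays, over target IDs above the median in at least 1 stage, gave the average over stages and liver minus embryo. The E8.5 and E12.5 arrays were compared as deposited, and the E9.5 and E11.5 arrays after quantile normalization together. Values were prepared and summarised in Python 3.11.15 with pandas 2.3.3 and numpy 2.4.6, and the fits were tested on simulated data. An exact test of 3 arrays against 3 cannot go below 0.1, so none is given. The labels do not say that samples of the same replicate number are paired, and the main fits used no pairing. Heterozygote and wild-type arrays of the same number had correlations of deviations from 0.0971 to 0.177 at E8.5 and as low as -0.393 at E11.5.

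By the rule for named genes, members called between genotypes get full statistics; with none called, the values in every array are given per role for the member of lowest p and the member of highest level at each stage, and of the other pathway genes the 2 of lowest p are named. Alternatives covered the filter, the variance prior, normalization, replicate block, Y-linked level and leaving out each array.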

Additional observations from a re-analysis of the deposited data

How the results depend on the processing

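In every alternative counted here, 0 members were called between genotypes at E8.5, E9.5, E11.5 and E12.5, in the average and in liver minus embryo. Run for each stage were no filter, a filter at the upper quartile, a variance trend and quantile normalization. So were the Y-linked level as a covariate, a replicate block and leaving out each array. The Y-linked run of E8.5 is not counted, since that level could not be separated from genotype there. Run across stages were the filter, trend and block, array weights, and leaving out E8.5 or each array. With the replicate number as a block, a pairing the labels do not give, the members' median differences stayed at 0.02, 0.00, 0.03 and 0.09 at the 4 stages. The block changed no member's call between genotypes. In the E12.5 pair it ended the call of Nop56 (-0.23). At E8.5 every WT and every het array correlated best with its own number, as a hint from the data, not the design. At E12.5 it was 2 of the 3 arrays of each genotype, and at E9.5 and E11.5 it was 0.

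The members' median difference at E8.5 was 0.02, and it was 0.0533 without a filter, -0.0146 with the upper-quartile filter and 0.0159 to 0.0706 leaving out 1 array. At E12.5 it was 0.09, against 0.0236 with the upper-quartile filter and 0.0256 to 0.0798 leaving out 1 array. In the average it was 0.02 to 0.06 leaving out 1 of 24 arrays, and for Eif6 the difference was 0.22 to 0.34. The count of all target IDs called at E9.5 was 1, but 14 with a trend or the upper-quartile filter, 6 with the Y-linked level, 2 with the block, 54 without heterozygote replicate 3 and 0 without any 1 wild-type array; in the average it was 0, but 51 without E8.5 wild-type replicate 1. For the effect in liver minus embryo it was 1, and 0 to 68 leaving out 1 array, the 68 without that same wild-type array. The causes were not tested.

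The median of E12.5 minus E8.5 was -0.41, and -0.71 for members above the median in both stages or -0.49 in wild type alone, where the calls of Utp6, Nop56 and Dkc1 were lost; so was that of Npm1 in the E11.5 pair. For E11.5 minus E9.5, 31 of 53 members were called. With array medians subtracted 53 were, their median was -0.99, and these members with a difference above 0 turned lower, for a cause that was not tested: Noc4l -0.14, Mphosph10 -0.32, Rcl1 -0.35, Krr1 -0.36, Imp4 -0.43, Polr1d -0.72, Mrto4 -0.73, Nop56 -0.74, Imp3 -0.81, Gar1 -0.81, Npm1 -0.83, Ltv1 -0.88, Snu13 -0.88, Gnl3 -0.92, Wdr46 -0.92, Utp11 -0.92, Ebna1bp2 -0.94, Polr1a -0.95, Pno1 -0.97, Emg1 -0.97, Bop1 -0.98, Pwp2 -0.99, Rrp9 -0.99, Eif6 -0.99 and Nop14 -0.99. A further 8 members below 0 became called. The share of all target IDs called with array medians subtracted is not given here. The planned background correction of unnormalized signal was not run, since those columns could not be given to samples.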

Other observations

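The target IDs of 1 gene can differ in place on the arrays. Nob1 stood at the 93.6th percentile at E8.5 by one target ID and at the 18.6th by the other, 1700021I09RIK, and Nip7 at the 92.1st and the 3.05th at E9.5. For Mphosph10 the 3 target IDs stood at 70.1, 51.1 and 18.1 at E9.5.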
